A study of Mus musculus with 4 samples.

Results

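The 36 genes described here encode proteins that sense, signal and repair DNA breaks: Brca1 and Brca2 with their partners, the Fanconi anaemia genes, the checkpoint kinases Atm, Atr, Chek1 and Chek2, and the end-joining genes. They were taken by gene name from 24217 named genes on a mouse expression array, and each gene was read from its probe with the highest mean signal over the arrays. The 36 genes had 50 probes in all, and 13 genes had more than 1, which served as a check.

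A break through both DNA strands is detected by the Mre11a, Rad50 and Nbn complex and by the kinases Atm and Atr, which activate Chek1 and Chek2 and halt the cell cycle. The break is then repaired either by homologous recombination, which copies the sister chromatid and so works mainly in S and G2 phase, or by end joining, which works throughout the cycle. The Fanconi anaemia proteins act on crosslinks between the strands and at stalled forks, and their loss causes bone marrow failure. Quiescent blood stem cells are known to rely more on end joining than cycling progenitors do.

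The study used donor marrow from 10-week-old male C57BL/6J mice (Ly5.2), either wild type (WT) or with a conditional knockout (cKO) of p38, which the study's title gives as p38 alpha, a stress-activated kinase. Long-term haematopoietic stem cells (LT-HSC, sorted as CD34- Flt3- LSK cells) or multipotent progenitors (MPP, CD34+ Flt3+ LSK cells) were labelled with the dye CFSE and given to congenic Ly5.1 hosts irradiated with 9.5 Gy. CFSE-positive cells were sorted from the marrow of the hosts 16 h later. Each of the 4 groups (LT-HSC and MPP of either genotype) was measured on 1 array. All donor cells, the controls included, had therefore gone through transplantation into irradiated marrow. The promoter that drove the deletion, the deleted exons and the number of mice behind each array are not given in the sources used here.

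Since no group was repeated, a difference of 2 arrays could not be set against replicate spread, and none was tested. Differences are log2 values after each array was scaled to its 75th percentile, and the error written after ± comes from the spot errors that the scanner software reports, which leaves out cells, sorting and amplification. A gene is called higher or lower at 2-fold or more. Where a probe was well above background on only 1 of a pair of arrays, its difference is called a bound, "at least N-fold". The dim side was taken as its own value or as the dimmest signal that passed the background test on that array, whichever was larger. Its own value had failed that test. A bound is therefore nominal and carries the scanner error of a dim spot, although no ± is written with it.

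Signals passed the background test at 62.5% to 70.5% of spots, and the dimmest of them lay between 12.5 and 15.4. The targeted gene Mapk14 had signals of 1447 on WT LT-HSC, 912 on cKO LT-HSC, 951 on WT MPP and 1024 on cKO MPP, and its other probe differed between the genotypes by 0.13 in LT-HSC and -0.03 in MPP, so neither probe checks the genotype labels without knowledge of the deleted exons. The sorting markers Cd34 and Flt3 were lower on the LT-HSC array of each genotype (Cd34 by -2.99 in WT and -1.02 in cKO), and the stem cell antigen Ly6a was higher (1.96 and 2.11). No other of the 9 stem cell markers was higher by 2-fold: Procr stood at -1.18 in WT and Mecom at -1.75 in cKO, and the median of the 8 markers measured on both arrays was 0.01 in WT and 0.16 in cKO. Markers of B cells stood on both LT-HSC arrays, with 9 of 9 well above background there against 6 on WT MPP and 5 on cKO MPP, and their summed signal was 13823 on WT LT-HSC, 4923 on cKO LT-HSC, 436 on WT MPP and 320 on cKO MPP. Of 8 stromal and endothelial markers, 8 were well above background on each LT-HSC array and 6 on each MPP array, with a summed signal of 7156 on WT LT-HSC against 1320 on cKO LT-HSC. Cxcl12 alone made up 5118 of the sum on WT LT-HSC. Between these 2 arrays 5 of the 8 were lower by 2-fold on cKO LT-HSC and 2 were higher, Pecam1 by 2.39 and Kitl by 1.41. The part of these other cell types in the results below was not tested.

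Each gene was read through a short DNA oligonucleotide, and 7 of them are shown as examples: 5 genes lower on WT LT-HSC, 1 gene lower on cKO LT-HSC, and the Atm probe that disagrees with the brighter one. All are 60 bases long and written 5′ to 3′ as in the scanner files, with positions on mouse build mm9. The Brca1 probe, chr11:101359283-101363319, minus strand, spans 4037 genomic bases and the Prkdc probe, chr16:15839317-15841922, plus strand, spans 2606, so both cross an exon junction and read spliced RNA. The others lie in uninterrupted sequence: Palb2 at chr7:129256813-129256872 (minus), Fancb at chrX:161434946-161435005 (plus), Ercc1 at chr7:19935530-19935589 (plus), Nbn at chr4:15906456-15906515 (plus) and the dimmer Atm probe at chr9:53256167-53256226 (minus).
Brca1: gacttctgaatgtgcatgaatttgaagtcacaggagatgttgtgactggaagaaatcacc
Palb2: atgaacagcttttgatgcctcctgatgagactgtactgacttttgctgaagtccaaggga
Fancb: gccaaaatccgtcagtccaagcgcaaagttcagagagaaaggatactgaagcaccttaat
Prkdc: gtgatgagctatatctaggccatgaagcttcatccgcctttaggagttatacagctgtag
Ercc1: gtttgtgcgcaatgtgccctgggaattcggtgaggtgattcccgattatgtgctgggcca
Nbn: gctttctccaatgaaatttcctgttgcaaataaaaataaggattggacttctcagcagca
Atm, dimmer probe: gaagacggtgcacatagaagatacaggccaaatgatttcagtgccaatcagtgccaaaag

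All 36 genes were well above background on cKO LT-HSC, 35 on WT MPP, 33 on cKO MPP and 30 on WT LT-HSC. Over all spots the shares were 70.5%, 62.5%, 65.0% and 68.3% in the same order. The exceptions on WT LT-HSC were Brca1, Palb2, Rad51ap1, Fancd2, Xrcc4 and Lig4. Lig4, the ligase that seals joined ends, was above background on cKO LT-HSC alone, with a signal of 30.7 there against 3.28 on WT LT-HSC, 3.98 on WT MPP and 6.50 on cKO MPP. Of the 30 genes above background on all 4 arrays, 13 had their lowest value on WT LT-HSC, 11 on cKO LT-HSC, 6 on cKO MPP and 0 on WT MPP, where 15 had their highest. Over the 14645 named genes above background on all arrays, 40.3% were lowest on WT LT-HSC and 25.03% on cKO LT-HSC. The shares lowest on cKO MPP and WT MPP were 14.97% and 19.7%, and 37.6% were highest on WT MPP.

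**Figure D1:**
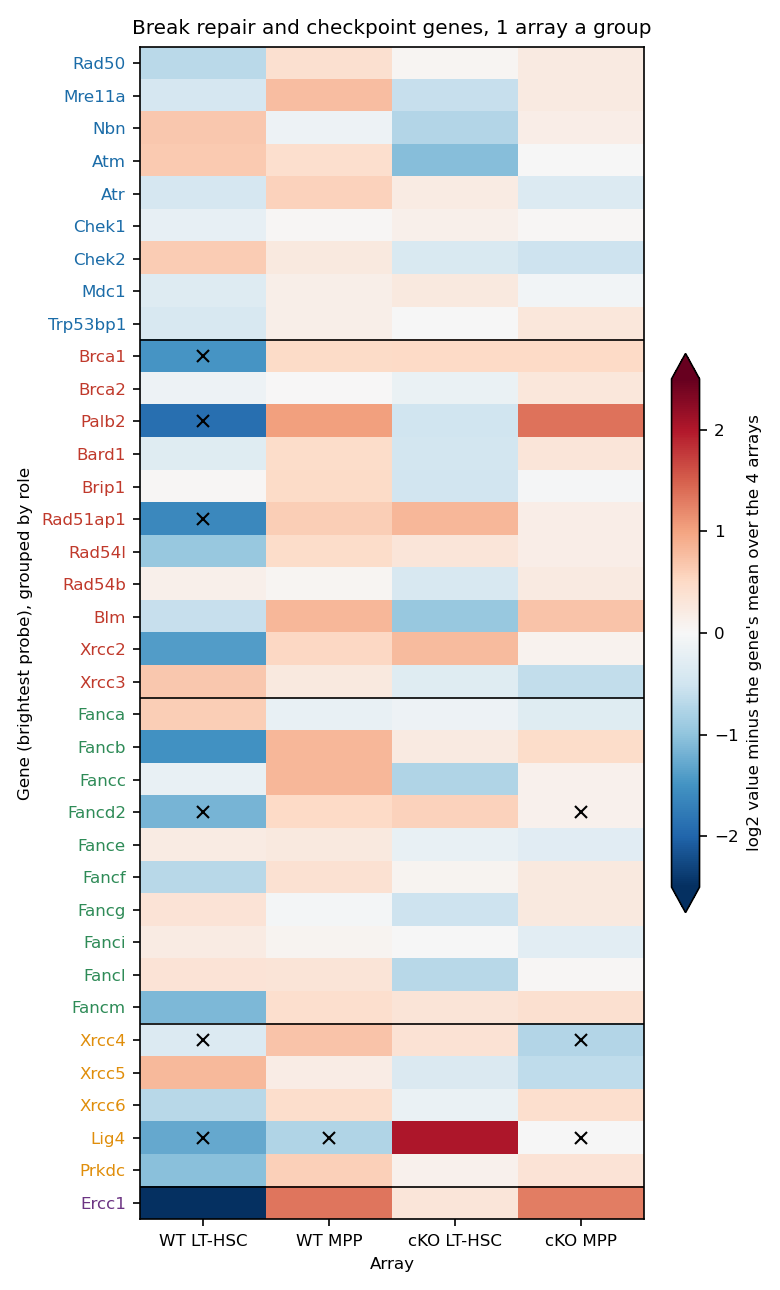
Heat map of the 36 genes (rows, coloured by role) on the 4 arrays (columns), 1 array a group. Colour is the log2 value minus the gene's own mean over the 4 arrays, and a cross marks a signal not well above background, as for 6 genes on WT LT-HSC. Ercc1, Fancb, Xrcc2, Brca1, Palb2 and Rad51ap1 are the darkest blue on WT LT-HSC.

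The first comparison set LT-HSC against MPP within the WT, 2 populations that differ in how many of their cells cycle. On the WT LT-HSC array 16 of the 35 genes that could be compared were lower by 2-fold or more and 0 were higher, where 20.2% of all named genes were lower and 10.7% higher. The 30 genes measured on both arrays had a median difference of -0.50, against -0.22 over all genes, and with the bounds included the medians were -0.94 and -0.13. Here and below, fewer cells that express a gene and less RNA per cell cannot be told apart. Of the 16 lower genes, 9 had a signal under 50 on their dimmer array, near the lower end of what the arrays measured. With a background correction that adds an offset of 50 the count was 5. The share of all named genes with that correction was not counted, so the 5 cannot be set beside the 20.2%.

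The recombination genes made up 6 of the 16. Blm, a helicase that dissolves crossed-over strands, had a signal of 881 on WT LT-HSC, 1958 on WT MPP, 650.3 on cKO LT-HSC and 1763 on cKO MPP. It was lower on the LT-HSC array of both genotypes, by -1.41 ± 0.20 in WT and -1.65 ± 0.20 in cKO. Palb2, which tethers Brca2 to Brca1, had a signal of 6.62 on WT LT-HSC, 16.3 on cKO LT-HSC, 41.7 on WT MPP and 51.6 on cKO MPP. Both LT-HSC arrays were thus below both MPP arrays, by at least 4.00-fold in WT and by -1.87 ± 0.36 in cKO. At its other probe the bound was at least 2.64-fold in WT and the cKO difference was -0.55 ± 0.32.

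Brca1, the ubiquitin ligase subunit that starts recombination, had a signal of 13.4 on WT LT-HSC, not well above background, against 43.1 on WT MPP, 49.8 on cKO LT-HSC and 42.8 on cKO MPP. It was lower by at least 3.85-fold on WT LT-HSC than on WT MPP, and the other 3 arrays lay close together. Rad51ap1, a recombination accessory protein, had 11.9 on WT LT-HSC (not well above background), 46.9 on WT MPP, 61.6 on cKO LT-HSC and 33.6 on cKO MPP. Xrcc2, which also acts in recombination, had 16.2, 51.4, 69.8 and 37.4 in the same order. Rad54l, a DNA motor protein of recombination, had 258 on WT LT-HSC, 570.1 on WT MPP, 579 on cKO LT-HSC and 458 on cKO MPP. All 4 of these genes shared 1 pattern: WT LT-HSC stood alone at the bottom, and after scaling cKO LT-HSC lay at or above cKO MPP. The LT-HSC minus MPP difference of Rad54l was -1.40 ± 0.21 in WT and 0.13 ± 0.20 in cKO, and that of Xrcc2 was -1.93 ± 0.35 and 0.69 ± 0.24.

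The 5 other recombination genes were within 2-fold at their brightest probe. Bard1, the partner of Brca1 in its ligase, stood at -0.74 ± 0.21 in WT and -0.78 ± 0.21 in cKO, and at -1.51 and -1.73 at its second probe, so this gene was lower in LT-HSC of both genotypes at 2 probes. Its remaining probe stood at -0.24 in WT. Brip1, a helicase bound to Brca1, stood at -0.46 in each genotype and Brca2, the partner of Palb2, at -0.13 and -0.46. Rad54b stood at 0.08 and -0.62, with -0.97 and -2.04 at its other probe. Xrcc3 was the one recombination gene above 0.1 in both, with 0.43 and 0.30.

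Among the Fanconi anaemia genes 4 of 10 were lower on WT LT-HSC than on WT MPP. Fancb, a subunit of the core ubiquitin ligase complex, had a signal of 38.4 on WT LT-HSC, 163 on WT MPP, 121 on cKO LT-HSC and 123 on cKO MPP, a difference of -2.35 ± 0.24 in WT and -0.23 ± 0.21 in cKO. Fancm, the translocase that recruits the core complex, had 29.0, 70.7, 74.8 and 68.2 on the same arrays (-1.54 ± 0.26 in WT, -0.07 ± 0.22 in cKO). Both genes had their lowest value on WT LT-HSC. Fancf, an adaptor of the complex, differed by -1.08 ± 0.21 in WT and -0.18 ± 0.21 in cKO. Fancc, another core subunit, was 2.01-fold lower in WT (signals of 83.2 and 139) and differed by -0.87 ± 0.22 in cKO, so it was lower in LT-HSC of both genotypes. Fancd2, which the core complex ubiquitinates, was dim throughout (7.58 to 23.8) and lower by at least 1.92-fold in WT. Its partner Fanci stood at 0.13 and 0.25, Fance at -0.04 and 0.10, and Fancl, the catalytic subunit, at 0.01 and -0.73. The other probes of these genes stood lower in places, with Fanci at -0.84 ± 0.24 and Fancl at -1.31 ± 0.21 in WT and Fance at -1.50 ± 0.26 in cKO. Fanca stood at 0.81 ± 0.21 in WT, the highest difference of the 35 genes compared, and at 0.18 in cKO, and Fancg at 0.39 and -0.76. The other Fanca probe stood at 0.38 ± 0.32 in WT and at -1.05 ± 0.33 in cKO.

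Of the sensing and signalling genes 2 of 9 were lower, a share near the 20.2% of all named genes. Mre11a, the nuclease of the break-sensing complex, had a signal of 271 on WT LT-HSC, 513 on WT MPP, 229 on cKO LT-HSC and 346 on cKO MPP, and was lower in LT-HSC by -1.18 ± 0.20 in WT and -0.81 ± 0.21 in cKO. Rad50, its partner, was lower by -1.08 ± 0.20 in WT, but its other probe stood at -0.49. Nbn, the remaining subunit, went the other way in WT with 0.79 ± 0.21. The kinase genes Chek1 (-0.23) and Chek2 (0.38) stayed within 1.5-fold in WT. Atm stood at 0.24 ± 0.21 at its brightest probe and at -2.11 ± 0.08 at the other, and Atr at -0.99 ± 0.21 and 0.29 ± 0.27, so the probes of both genes lay on opposite sides of 0. The mediators Mdc1 and Trp53bp1, which hold repair proteins at the break, stood at -0.46 and -0.54.

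In end joining, Prkdc, the kinase that binds broken ends, was lower on WT LT-HSC by -1.65 ± 0.08 (signals of 37.8 against 99.2), Xrcc6, which encodes the Ku70 subunit of the Ku ring, by -1.14 ± 0.20 (937 against 1722) and the ligase cofactor Xrcc4 by at least 2.06-fold. Xrcc5, which encodes the other Ku subunit, Ku80, stood at 0.63 ± 0.21, so the genes of the 2 Ku subunits lay on opposite sides of 0. Ercc1, a subunit of a nuclease that trims DNA flaps and crosslinks, had the largest difference of the list. Its signal was 17.8 on WT LT-HSC, 277 on WT MPP, 153 on cKO LT-HSC and 261 on cKO MPP, a difference of -4.22 ± 0.32 in WT and -0.98 ± 0.21 in cKO. Its only probe was near the background limit on WT LT-HSC, and with the offset of 50 the WT difference was -2.21.

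**Figure D2:**
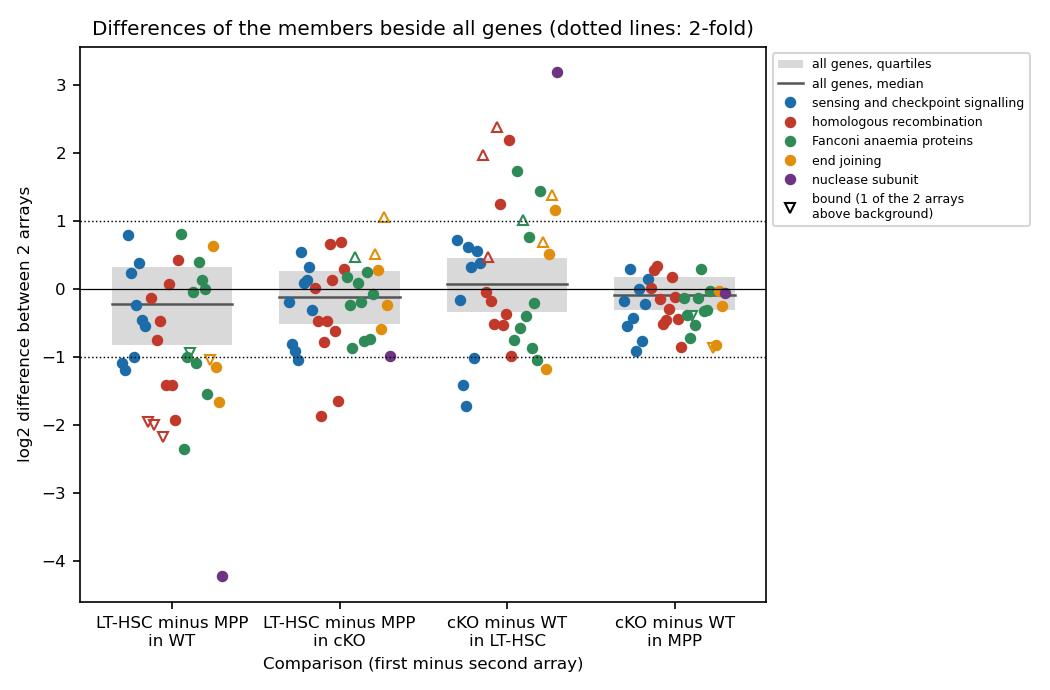
Log2 differences of the genes in the 4 comparisons of 2 arrays, coloured by role, beside the median (line) and quartiles (grey) of all named genes; dotted lines mark 2-fold and open triangles are bounds. The genes reach -4.22 for LT-HSC minus MPP in WT and 3.19 for cKO minus WT in LT-HSC, and the 33 measured on both arrays stay within 2-fold for cKO minus WT in MPP.

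The same comparison between the cKO arrays gave smaller differences, as it did over all genes. Of 36 genes, 3 were lower by 2-fold on cKO LT-HSC (Atm, Palb2 and Blm) and 1, Lig4, was higher, by a bound of at least 2.08-fold. With the mean of its probes Atm stood at -0.52, short of 2-fold. Over all named genes 7.74% were lower and 8.0% higher. The median of the 33 genes measured on both arrays was -0.23, against -0.11 over all genes. The 2 population comparisons share no array. Over the 30 genes measured in both, 19 (63.3%) had the same sign, against 69.1% of all genes, and the correlation between the differences was 0.15 over the 30 genes and 0.51 over all genes, across genes and not replicates. Blm was the only gene past 2-fold in both at measured values, and Palb2 was past it in both with its WT value as a bound.

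**Figure D3:**
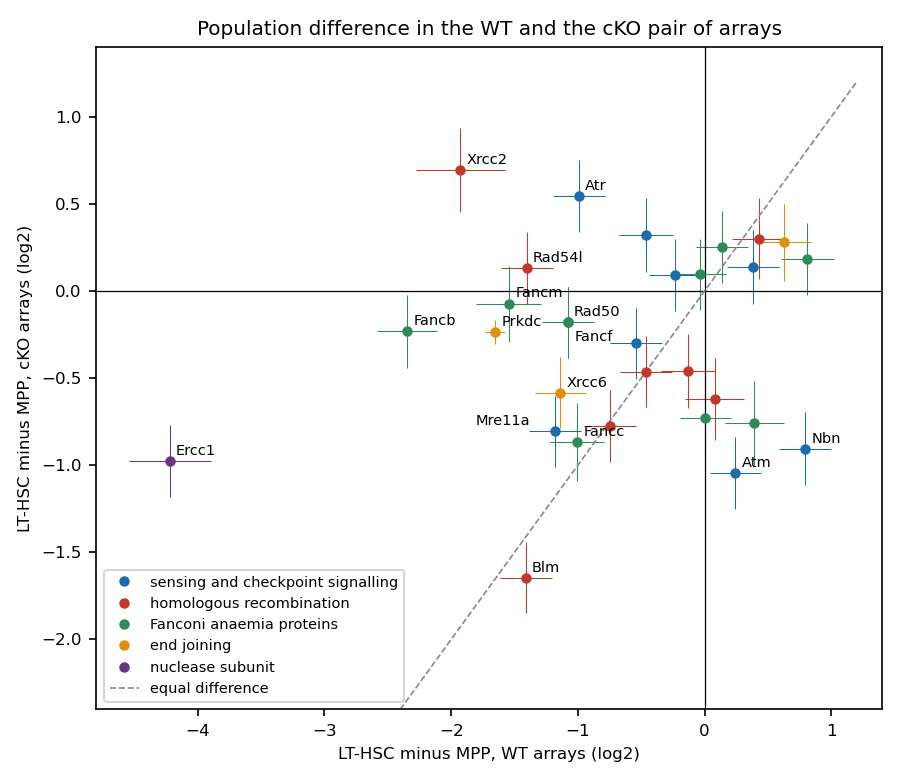
LT-HSC minus MPP difference on the WT arrays (x axis, log2) against that on the cKO arrays (y axis, log2) for the 30 genes measured in both, with the scanner's error as bars and the dashed line at equal differences. Blm, Fancc and Mre11a lie near the dashed line, while Fancb, Fancm, Prkdc and Rad54l lie near 0 on the y axis with WT differences from -1.40 to -2.35.

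An additive limma fit over the 4 arrays, with genotype and population as terms and 1 residual degree of freedom, tested what the genotypes shared. For population, 0 of 35 genes and 0 of 17532 named genes passed a Benjamini-Hochberg adjusted p of 0.05. At an unadjusted p under 0.05 there were 4 of the 35, against 14.6% of all genes: Palb2 (-2.39 ± 0.40, standard error, adjusted p = 0.27), Blm (-1.53 ± 0.29, adjusted p = 0.30), Mre11a (-0.99 ± 0.30, adjusted p = 0.33) and Fancc (-0.93 ± 0.29, adjusted p = 0.33), each lower on both LT-HSC arrays. The value of Palb2 on WT LT-HSC entered the fit although it was not well above background. For genotype, the limma fit called 0 of 35 genes and 0 of all genes after adjustment, and at an unadjusted p under 0.05 it gave 3 of the 35, against 3.18% of all genes. They were Xrcc5 (-0.9996 ± 0.30), Xrcc3 (-0.92 ± 0.29) and Chek2 (-0.89 ± 0.29), each with an adjusted p of 0.97.

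Setting the cKO LT-HSC array against the WT one asked how these transcripts differed between the genotypes in cells sorted as LT-HSC, early after transplantation. The 2 arrays also differed in progenitor markers. Cd34 was higher on cKO LT-HSC by 1.70 (signals of 3601 against 1169) and Cd48 by 1.01, while Flt3 differed by 0.18. The part of this in the differences below was not tested. On the cKO array 10 of 36 genes were higher by 2-fold and 5 lower, where 11.7% of all named genes were higher and 9.58% lower. The higher genes were Ercc1, Xrcc2, Fancb, Fancm, Rad54l and Prkdc by measured values and Rad51ap1, Brca1, Lig4 and Fancd2 by bounds. Because this comparison and the one of the WT populations both use the WT LT-HSC array, a gene low on that array is counted in both, and 8 of the 10 higher genes are among the 16 named above. Of the 10, 9 had a signal under 50 on WT LT-HSC. With the offset of 50 the count of higher genes was 2, again with no share over all genes. The median of the 30 genes measured on both arrays was -0.17 against 0.08 over all genes. That median leaves out the 6 genes not above background on WT LT-HSC, and with their bounds it was 0.35, against 0.10 over all genes, so its sign depends on them.

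Ercc1 was higher on cKO LT-HSC by 3.19 ± 0.32 (1.497 with the offset of 50), Xrcc2 by 2.19 ± 0.34, Fancb by 1.74 ± 0.24, Fancm by 1.45 ± 0.25, Rad54l by 1.25 ± 0.20 and Prkdc by 1.16 ± 0.08. Rad54l was the only one of these whose signal was over 50 on both arrays. Rad51ap1 was higher by at least 5.22-fold, Brca1 by at least 3.93-fold, Lig4 by at least 2.60-fold and Fancd2 by at least 2.02-fold. As log2 values the bounds of Lig4 and Fancd2 were 1.38 and 1.01, with scanner errors of 1.46 and 0.66 on the plain differences. For Rad51ap1 and Brca1 those errors were 0.40 and 0.39. None of the 10 had a second probe above background that could check the difference.

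The 5 lower genes were measured at higher signals, all at or above 90.8 on their dimmer array. Atm, the kinase that signals double-strand breaks, had a signal of 426 on WT LT-HSC, 301 on WT MPP, 123 on cKO LT-HSC and 219.8 on cKO MPP, so the cKO LT-HSC array was the lowest, at -1.71 ± 0.21 against WT. The other Atm probe, shown above, went the opposite way, with 40.0, 144, 128 and 111 on the same arrays and a difference of 1.76 ± 0.07. With the mean of both probes the Atm difference was 0.023, so these arrays give no direction for Atm. Nbn had 333 on WT LT-HSC, 160.2 on WT MPP, 119 on cKO LT-HSC and 192 on cKO MPP, a difference of -1.41 ± 0.21 at its only probe. Xrcc5 stood at -1.17 ± 0.21 (217 against 90.8), Fancl at -1.04 ± 0.20 with 0.32 ± 0.21 at its other probe, and Chek2, the kinase downstream of Atm, at -1.01 ± 0.21 (232 against 109).

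Genes of 1 complex did not all differ alike between the LT-HSC genotypes. Of the break-sensing complex, Nbn was lower, Mre11a stood at -0.16 ± 0.21, and Rad50 stood at 0.73 ± 0.20 with -0.77 ± 0.21 at its other probe. The probes of Rad50 thus give no direction for that gene. Of the Ku ring, Xrcc5 was lower and Xrcc6 stood at 0.52 ± 0.20. Of the recombination genes, Xrcc3 stood at -0.98 ± 0.22 while Xrcc2 was higher. Palb2 and Xrcc4, not above background on WT LT-HSC, had only bounds, of at least 1.38-fold and at least 1.62-fold higher on cKO LT-HSC. The remaining genes, all measured on both arrays, stayed within 2-fold at their brightest probe. They ran from Fancg at -0.86 and Fanca at -0.75 to Mdc1 at 0.56, Atr at 0.62 and Fancf at 0.77. Blm (-0.36), Bard1 (-0.17), Fance (-0.39), Brca2 (-0.04) and Chek1 (0.32) were among them. Other probes of Fance and Bard1 passed 2-fold. The other Fance probe stood at -1.59 ± 0.26. The dimmest Bard1 probe was lower by at least 4.03-fold on cKO LT-HSC, while its second probe stood at 0.26 ± 0.23.

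In MPP 0 of 35 genes were called higher and 0 lower at 2-fold between the genotypes, Xrcc4 and Fancd2 with only bounds (at least 1.82-fold and at least 1.32-fold lower), where 2.36% of all genes were higher and 2.68% lower. The median of 33 genes was -0.21 against -0.08 over all genes, and 26 of the 33 lay below 0. The median over all genes was thus also below 0, as were 35 of 51 other break repair genes, described further below. Among measured differences the lowest were Atr (-0.92 ± 0.21), Xrcc3 (-0.85 ± 0.23), Xrcc5 (-0.82 ± 0.22), Chek2 (-0.76 ± 0.21) and Fancc (-0.71 ± 0.21), and the highest were Palb2 (0.34 ± 0.26), Nbn (0.29 ± 0.21), Brca2 (0.29 ± 0.21) and Fancg (0.29 ± 0.24). Ercc1 (-0.06), Prkdc (-0.25), Fancb (-0.38) and Rad54l (-0.29), all higher on cKO LT-HSC, lay near or below 0 in MPP. The dimmest Bard1 probe stood at -1.03 ± 0.27 in MPP, past 2-fold, against -0.14 at the brightest. Xrcc5, Xrcc3 and Chek2 were lower by over 1.5-fold on the cKO array in both populations, in 2 pairs of arrays that share none. The share of all genes lower by that much in both pairs was not counted. Over the 30 genes measured in both pairs, 14 (46.7%) had the same sign, against 50.1% of all genes. The correlation between those differences was 0.13 over the 30 genes and 0.02 over all genes. Past 2-fold in the same direction in both were 0 of the 30. For Xrcc5 the signals were 217 and 117 on the WT arrays against 90.8 and 64.8 on the cKO arrays, and for Xrcc3 127 and 78.9 against 60.9 and 42.8, so both cKO arrays were below both WT arrays. For Chek2 they were 232 and 149 against 109 and 85.9. Each of these genes has 1 probe.

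The other probes of a gene gave a check within each array pair. In the comparison of genotypes in LT-HSC, 10 genes had 2 probes measured on both arrays. In 4 of the 10 the probes shared a sign, against 59.2% of 4292 genes with 2 probes over the whole array, and the median gap between the probes was 0.92 against 0.59 over those genes. For LT-HSC against MPP the probes shared a sign in 5 of 11 pairs in WT (68.6% over all genes) and in 9 of 11 pairs in cKO (66.0%). In MPP, comparing genotypes, they shared it in 7 of 12 pairs (61.5%).

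**Figure D4:**
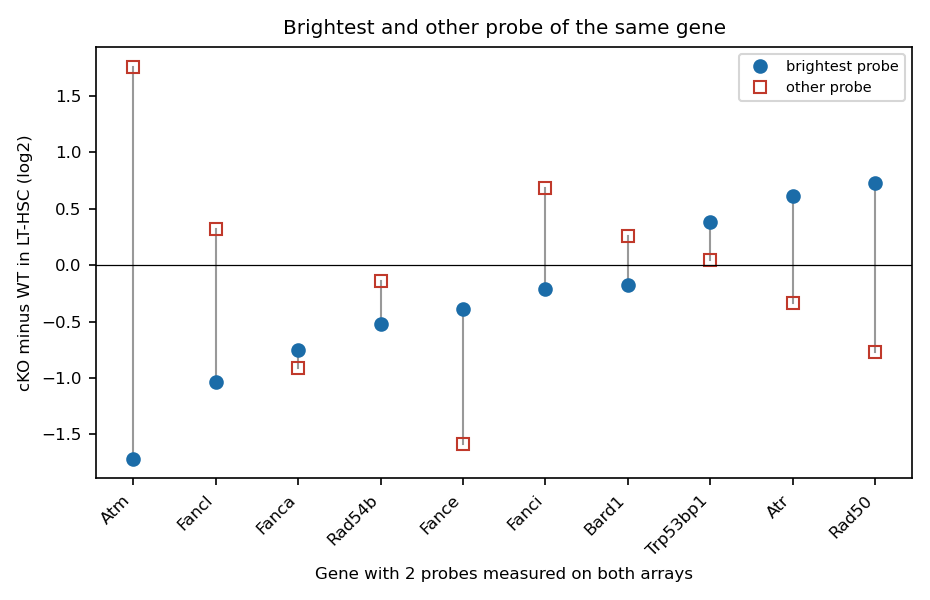
Difference of cKO minus WT in LT-HSC (y axis, log2) at the brightest probe (filled circles) and at the other probe (open squares) of the 10 genes with 2 probes measured on both arrays. The probes of Atm lie at -1.71 and 1.76, and those of Fanca (-0.75 and -0.91) are the closest.

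Other genes of the same pathway, 53 found on the array out of a list of 55, were also more often lower than higher in LT-HSC. On WT LT-HSC 21 of 52 were lower by 2-fold than on WT MPP and 2 were higher, with a median of -0.76, and on cKO LT-HSC 6 were lower and 2 higher than on cKO MPP, with a median of -0.45. Over all named genes the shares were 20.2% lower and 10.7% higher in WT, and 7.74% lower and 8.0% higher in cKO. The histone gene H2afx, whose product is phosphorylated around breaks, was the lowest in WT (-2.15, and -1.28 in cKO), followed by the nuclease gene Dna2 (-2.10, and 0.23 in cKO). Dclre1c, which encodes the end-joining nuclease Artemis, was higher on the LT-HSC array in both genotypes (2.57 and 1.29), and the nuclease gene Fan1 was higher in WT (1.24). Between the genotypes in LT-HSC, 6 of 52 were higher and 2 lower, the first a share near the 11.7% of all named genes, with Dna2 (2.42) and Fam175a (1.61) highest and Hus1 (-2.22), a subunit of the checkpoint clamp, lowest. Hus1 also stood at -1.28 in MPP.

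Genes of the cell cycle were read on the same arrays. On WT LT-HSC 9 of 10 mitosis genes and 7 of 12 replication genes were lower by 2-fold than on WT MPP, with medians of -2.07 and -1.06, and on cKO LT-HSC 6 and 2 were, with medians of -1.12 and -0.53. Between cKO and WT LT-HSC the medians were 0.66 and 0.31, and in MPP -0.11 and -0.24. The repair genes measured on both arrays had medians of -0.17 in LT-HSC (0.35 with the bounds) and -0.21 in MPP. The summed signal of the mitosis genes was 4342 on WT LT-HSC, 6291 on cKO LT-HSC, 10168 on WT MPP and 9301 on cKO MPP. The part of cycling in the differences of the repair genes was not tested.

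Promoters of the genes were read from RefSeq (GRCm38.p6, 250 bases before to 50 after the start), where 30 of the 36 genes had an entry. The search was for the 8-base sites of E2F factors, which drive many S-phase genes, spelled TTTGGCGC, TTTCCCGC, TTTGCCGC or TTTCGCGC on either strand. A site stood in 6 of the 30 (Chek2, Mdc1, Brca2, Bard1, Fancg and Xrcc6) against 2.26% of all 32851 promoters, coding and non-coding genes together, and each match was TTTCCCGC or its reverse. Of the 16 genes lower on WT LT-HSC than on WT MPP, 13 had an entry, and among those Xrcc6 held one. The CCAAT box stood in 19 of 30, against 37.4% of all promoters, and the cell cycle element TTTGAA in 1 of 30, against 17.9%. The stretches around the site of Xrcc6 (46 bases before the start, at chr15:82016297-82016356, plus strand), the one lower gene among those searched that held it, and of Bard1 (209 bases before, at chr1:71103148-71103207, minus strand) are given with the site in capitals.
Xrcc6: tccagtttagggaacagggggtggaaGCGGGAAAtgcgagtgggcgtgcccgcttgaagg
Bard1: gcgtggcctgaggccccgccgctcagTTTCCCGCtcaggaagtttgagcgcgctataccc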

How the data were processed

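The authors deposited 1-colour (Cy3) spot intensities, read with Agilent Feature Extraction, version 10.7.3.1 in the file headers and 9.5.3 in the submitters' processing notes. Per the file headers, these signals had their background and spatial trend removed, with no scaling across arrays, and flags (a score of 0 or 1 per spot) marked outliers, saturation and signals well above background. The authors' series table, an alternative here, held ratios to each probe's own level. It was the same signal times an array factor and a probe factor, in the same direction, and its scaling rule and centring stayed unknown. Its column medians were 91.9 and 97.5 (LT-HSC, WT and cKO) and 107 and 102 (MPP, WT and cKO). All 4 arrays lay on 1 slide from 1 scan, and their number limits the precision.

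Outlier spots (137 to 151 of 59305 an array) were left out, and 0 were saturated. Spots of a probe were averaged as log2 intensity minus the array's 75th percentile. The fit used limma 3.58.1 (R 4.3.3), tested on simulated data, on genes above background on 2 or more arrays; 4 genes lacking an array were dropped. Genes, lists and tests were chosen with earlier results of these data known, and promoter motifs after the values. All 36 genes are accounted for. Those at 2-fold are named in each comparison, with up to 3 other break repair genes in each direction.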

Additional observations from a re-analysis of the deposited data

Results flagged for a closer look

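Atr had genotype differences of opposite sign in the 2 populations, both over 1.5-fold: 0.62 ± 0.21 for cKO minus WT in LT-HSC and -0.92 ± 0.21 in MPP. Its signals were 180.4 on WT LT-HSC, 262 on cKO LT-HSC, 299 on WT MPP and 156 on cKO MPP. The other probe stood at -0.33 ± 0.25 and -0.08 ± 0.29, so it shared the sign in MPP and not in LT-HSC. The difference between the populations was not tested, since each group had 1 array. Atr was the only one of the 30 genes measured on all arrays with such a pair, and over all genes 3.69% had one.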

How the results depend on the processing

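Under the alternatives for the counts at 2-fold, the medians and the counts of the additive fit, 88 values stayed close to the reported value and 20 moved. The 88 include every count of the additive fit, which was 0 throughout. Close meant within 1.5-fold for a count and within the scanner error for a median or a single gene. Of 241 values for single genes, 195 stayed close, 43 moved and 3 changed sign. With normexp background correction and an offset of 50, the lower genes for LT-HSC minus MPP were 5 in WT and 1 in cKO (0 higher), and for cKO minus WT in LT-HSC 2 were higher and 2 lower. With the second brightest probe, which 11 genes have, they were 4 lower in WT (median -0.88), 5 lower and 0 higher in cKO (median -0.55), and 1 higher and 1 lower for cKO minus WT in LT-HSC. With probes of a gene averaged, 3 were lower in that comparison. Without a filter on dim probes the median was -0.87 for the WT populations and 0.35 for the LT-HSC genotypes, with 2 higher for the cKO populations and 1 lower for the MPP genotypes. With genes above background on all 4 arrays, 6 were higher for the LT-HSC genotypes and 0 for the cKO populations, where quantile normalization also gave 0. For cKO minus WT in LT-HSC, Atm stood at 0.023 with the mean of its probes and at 1.76 with the second probe, and Fancl at 0.32 with the second probe. For these counts at 2-fold the shares of all named genes were not counted under the alternatives. The offset shrinks differences of dim probes by construction, and the stricter filter and the second probe use fewer genes. The cause of the other moves was not tested. The additive fit called 0 genes of the list after adjustment under every alternative run. No paired analysis was possible because each group had 1 array and the labels give no replicate numbers, and no replicate could be left out.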

Other observations

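Lists of markers not described above gave these values. Of 8 macrophage markers, 7 were higher by 2-fold on cKO MPP than on WT MPP, with a median of 1.44 and a summed signal of 9883 against 4105, while 0 of 35 repair genes reached 2-fold in that comparison. Of 7 T and NK cell markers, 7 were well above background on each LT-HSC array, 3 on WT MPP and 4 on cKO MPP. Erythroid markers had a summed signal of 15806 on WT LT-HSC, 7292 on cKO LT-HSC, 3886 on WT MPP and 4092 on cKO MPP, and neutrophil markers 44509, 50961, 29329 and 35370. The neutrophil markers did not share a direction. Of 8, 5 were higher and 2 lower by 2-fold on WT LT-HSC than on WT MPP, and 4 and 2 between the cKO arrays. S100a9 alone made up 25947 of the sum on WT LT-HSC. The 2 lower in WT were Mpo (signals of 3534 against 13245) and Prtn3 (458 against 2165).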
